A study of Mus musculus with 32 samples.

Results

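The mitochondrial ribosomal protein genes were followed through 32 libraries of mouse intestinal stem cells. Members were the genes with a symbol that begins with Mrpl or Mrps and a digit, annotated as protein-coding, whose mean over all libraries was 10 CPM (counts scaled to a common library total of 1e+06) or more. Of 54418 genes in the deposited table, 83 carry such a symbol, 78 of them protein-coding and 5 pseudogenes, and 74 met the rule. They comprise 50 proteins of the large subunit, 23 of the small subunit, and Mrps36, which keeps a ribosomal name but is known as a component of the oxoglutarate dehydrogenase complex. Mrps18a is counted with the large subunit, where its protein sits despite the name. The rule used the mean level over the same libraries, so the members were chosen by measured values, and their high levels are not a result. The mean was 10.4 CPM for Mrpl3, 11.8 CPM for Mrpl23 and 12.3 CPM for Mrpl10, just inside the threshold. Just outside it were Mrps23 at 9.64 CPM, Mrps6 at 8.75 CPM and Mrps2 at 4.89 CPM, and Mrps30, the remaining protein-coding gene left out, had 4.70 CPM.

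Mitochondrial ribosomes translate the few messenger RNAs of the mitochondrial genome, all of which encode subunits of the respiratory chain and the ATP synthase. Their ribosomal RNAs come from the mitochondrial genome, while every protein is encoded in the nucleus, made in the cytosol and imported. Some of these proteins descend from bacterial ribosomal proteins and others are particular to mitochondria. Intestinal stem cells rely on mitochondrial respiration, and fatty acid oxidation, which delivers electrons to the respiratory chain, is under control of the nuclear receptors PPAR-alpha and PPAR-delta.

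The question behind the series was whether Ppara, Ppard and fatty acid oxidation link a high-fat diet to these stem cells. Epithelial crypts were dissociated, and live cells bright for GFP and positive for the epithelial marker CD326 were sorted. Polyadenylated RNA was counted from the 3' ends of transcripts (High Throughput 3' DGE), so a level is not divided by transcript length. The strain label was C57BL6 throughout. The 8 groups held 4 libraries each: Wildtype (WT), Ppard-fl/fl (called PparD), Ppara-null (PparA) and both alleles together (PparDA), each on the Control or the High Fat diet. The design calls the 3 mutant genotypes knockouts. The labels leave unsaid how the floxed Ppard alleles were recombined, for how long mice were fed and how old they were. Nor do they tie the 4 libraries of a group to separate animals, so p-values measure the spread between samples.

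Library totals ran from 612672 to 724155 counts, and 11683 to 12212 genes had a count in a library. The stem cell markers were present in every library, with Lgr5 at 28.1 to 64.4 CPM, Olfm4 at 7063 to 13052 CPM and Ascl2 at 24.7 to 83.3 CPM, and the lymphocyte markers summed to 0 to 15.4 CPM. Ppara had 0 to 5 counts and Ppard 0 to 7 counts in a library, too few to check the genotypes. The libraries are numbered 1 to 32, and each of the 4 successive runs of 8 numbers holds every group once. Libraries of runs 1 and 3 had 465 to 928 CPM of Xist and no count of the Y-linked gene Ddx3y. Libraries of runs 2 and 4 had at most 9.70 CPM of Xist and 14.3 to 38.8 CPM of Ddx3y. Each group thus holds libraries from female and from male mice, and the spread within a group is not technical alone. After removing group means, 31 of 32 libraries correlated best with a library of their own run. Results are therefore given with the run as a replicate block wherever that changes a call. CPM values below are scaled with TMM normalization factors unless the library total is named.

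Of the 74 members, 73 entered the tests. Mrpl3 failed the filter on low counts. No member was at 0 in any library. Mean levels per library total differed widely. The large-subunit members had a median of 119.6 CPM, from 10.4 to 938, and the small-subunit members a median of 146 CPM, from 19.8 to 946. Together the 74 members summed to 12792 CPM per library. The highest was Mrps26, a mitochondria-specific small-subunit protein, at 946 CPM. Mrpl42, a mitochondria-specific large-subunit protein, followed at 938 CPM. Mrps14 had 669 CPM, Mrpl33 had 506 CPM and Mrps18c had 468 CPM, all 3 with bacterial counterparts. At the lower end stood Mrpl37 at 19.4 CPM and Mrpl38 at 12.6 CPM, both mitochondria-specific, then Mrpl10, which anchors the stalk that recruits translation factors, Mrpl23, and Mrpl3. These levels count 3' reads and do not measure protein. The members lie across the genome: chromosome 11 holds 10 of them, chromosome 17 holds 8 and chromosome 6 holds 7.

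Promoter sequences from RefSeq, 250 bases before to 50 bases after the gene start on GRCm38.p6, were matched for 65 of the 74 members. The sequences of 4 are shown. Mrps26 (chr2:130563507-130563806, plus strand) and Mrpl55 (chr11:59202236-59202535, plus strand) were the members whose levels passed the tests between groups described below. Mrpl33 (chr5:31613701-31614000, plus strand) and Mrps27 (chr13:99344536-99344835, plus strand) hold matches to 2 of the 3 marked motifs each. Capitals mark matches, on either strand, to CCGGAAG, the core of ETS family sites, to GCATGCGC, from the site of NRF1, or to AAGATGGC, from the site of YY1.
Mrps26 promoter: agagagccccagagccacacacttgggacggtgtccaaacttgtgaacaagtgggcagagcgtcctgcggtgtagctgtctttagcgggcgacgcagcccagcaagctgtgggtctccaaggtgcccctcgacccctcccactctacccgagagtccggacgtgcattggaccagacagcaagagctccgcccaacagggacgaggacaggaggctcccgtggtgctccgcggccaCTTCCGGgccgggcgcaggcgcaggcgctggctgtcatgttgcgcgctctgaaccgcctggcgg
Mrpl55 promoter: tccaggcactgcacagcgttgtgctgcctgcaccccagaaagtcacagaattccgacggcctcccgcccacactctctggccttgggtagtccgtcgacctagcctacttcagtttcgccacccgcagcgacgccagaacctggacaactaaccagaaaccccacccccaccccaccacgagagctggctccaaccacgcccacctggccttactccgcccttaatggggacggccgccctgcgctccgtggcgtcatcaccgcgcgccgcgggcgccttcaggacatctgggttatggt
Mrpl33 promoter: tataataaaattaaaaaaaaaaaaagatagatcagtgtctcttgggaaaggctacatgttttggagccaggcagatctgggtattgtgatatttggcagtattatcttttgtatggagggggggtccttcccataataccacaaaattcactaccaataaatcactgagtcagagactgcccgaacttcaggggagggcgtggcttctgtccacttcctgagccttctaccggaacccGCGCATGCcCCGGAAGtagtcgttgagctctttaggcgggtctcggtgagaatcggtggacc
Mrps27 promoter: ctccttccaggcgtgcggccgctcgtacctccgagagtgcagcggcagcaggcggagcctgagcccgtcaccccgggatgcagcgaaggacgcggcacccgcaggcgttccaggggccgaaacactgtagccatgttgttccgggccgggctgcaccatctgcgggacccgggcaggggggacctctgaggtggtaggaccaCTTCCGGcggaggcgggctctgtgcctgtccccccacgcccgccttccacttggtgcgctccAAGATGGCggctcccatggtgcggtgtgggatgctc
The Mrps26 window holds 1 ETS core and the Mrpl55 window none of the 3 motifs. CCGGAAG was found in 25 of 65 members (38.5%), against 25.2% of 4434 promoters of expressed genes and 9.93% of all 27025 promoters of the same length. AAGATGGC was found in 12 members (18.5%), against 6.77% of expressed and 3.19% of all promoters. GCATGCGC was found in 8 members (12.3%), against 7.24% and 3.05%. TATAAA was found in 5 members (7.69%), against 10.3% and 15.7%, and CCAAT in 26 (40.0%), against 45.4% and 41.1%. These counts describe letters in a fixed window, and a match is not evidence of binding.

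Diet alone moved no member past the test in any genotype. The test was edgeR's quasi-likelihood test with Benjamini-Hochberg adjustment over 5872 genes, called at an adjusted p under 0.05. In WT, where 0.102% of all genes were called, the median log2 fold change of the 73 members (high fat over control) was 0.00, with 37 members higher, and 8 members had an unadjusted p under 0.05 (11.0%, against 7.66% of all genes). In PparD the background was 0.0851% and 0 members were called. The members' median was 0.03, 42 were higher, and 2 had an unadjusted p under 0.05 (2.74%, against 4.99% of all genes). In PparA, with a background of 0.136%, the median was -0.01, 35 members were higher, 0 were called and 2 reached an unadjusted p under 0.05 (2.74%, against 5.79%). In PparDA, where 0.0341% of genes were called, 54 of 73 members were higher, 37 of 49 in the large subunit and 16 of 23 in the small, with a median of 0.12 against -0.00 over all genes. None of these 54 passed the test, and 8 members had an unadjusted p under 0.05 (11.0%, against 8.79% of all genes). With the 4 genotypes averaged, the background was 0.324%, 0 members were called and 6 reached an unadjusted p under 0.05 (8.22%, against 9.04%). The median was 0.03 and single members ran from -0.19 to 0.40. For 70 of the 73 members the confidence interval of this averaged diet difference lay within 1.5-fold in either direction, as it did for 82.3% of all genes. Within WT alone it did so for 49 of the 73 members. DESeq2 and limma also called 0 members in each of these 5 diet comparisons.

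**Figure D1:**
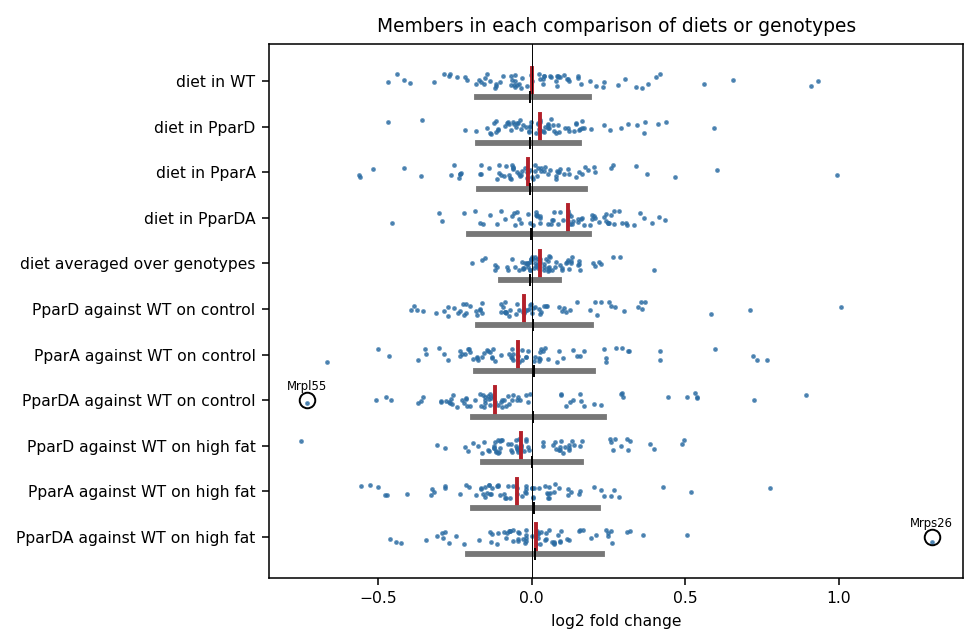
Log2 fold change of each of the 73 tested members (points) in 11 comparisons of diet or genotype, with the members' median (red line) and the quartiles and median of all 5872 tested genes (grey bar and tick). Circles mark Mrpl55 in PparDA against WT on control and Mrps26 in PparDA against WT on high fat, the members past an adjusted p of 0.05.

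Mrpl54, a mitochondria-specific large-subunit protein (chr10:81264713-81266934, GRCm38, minus strand), had the smallest p of any member for diet in WT. Its 4 WT control libraries had 24.1, 16.01, 15.1 and 20.05 CPM, and the 4 WT high-fat libraries had 37.3, 43.0, 34.0 and 31.2 CPM. The groups do not overlap, and WT control had the lowest mean of the 8 groups, 18.8 ± 4.12 CPM (SD, n = 4). The log2 fold change was 0.93 ± 0.25 (SE, n = 4 and 4; edgeR adjusted p = 0.287). In PparD the order was the other way, with 39.2, 49.3, 34.0 and 30.6 CPM on control and 30.3, 40.8, 22.6 and 25.8 CPM on high fat. PparA libraries had 22.7, 35.5, 21.9 and 48.5 CPM on control and 24.7, 32.3, 22.5 and 21.0 CPM on high fat. PparDA had 30.1, 44.0, 24.3 and 26.3 CPM on control and 38.3, 34.5, 43.5 and 32.2 CPM on high fat. These levels rest on few reads, a mean of 20.9 counts in a library. The diet effect in PparD minus that in WT was -1.29 for Mrpl54 (edgeR adjusted p = 0.372), and that in PparA minus WT was also -1.29 (edgeR adjusted p = 0.274). No member was called in these tests of the difference in diet effect, where 0.0511% of genes were called for PparD, 0.153% for PparA and 0.0% for PparDA. At an unadjusted p under 0.05 there were 4, 6 and 4 members (5.48, 8.22 and 5.48%, against 3.61, 8.19 and 5.77% of all genes), and DESeq2 and limma called 0 in each. The members' median difference in diet effect was 0.05 for PparD, 0.01 for PparA and 0.13 for PparDA.

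Other members with small p-values for diet were Mrps5 in WT, Mrpl12 in PparD, Mrpl23 in PparA (a log2 difference of 0.99, edgeR adjusted p = 0.78) and Mrpl16 in PparDA, none of which passed. Mrps5 (chr2:127587222-127606829, plus strand), whose bacterial counterpart lines the entry of the messenger RNA channel, was the WT member with the next smallest p. It had 74.9, 108, 101 and 110.3 CPM on control and 129, 164, 142 and 92.3 CPM on high fat, a log2 difference of 0.42 that did not pass the test (edgeR adjusted p = 0.531). The high-fat library with 92.3 CPM lay inside the control range. Mrpl12, a stalk protein that also binds the mitochondrial RNA polymerase (chr11:120484613-120489065, plus strand), had in PparD 43.5, 55.1, 50.2 and 39.0 CPM on control. On high fat it had 65.0, 67.0, 81.9 and 70.2 CPM. The PparD groups do not overlap, and the log2 difference was 0.60 ± 0.20 (SE, n = 4 and 4; edgeR adjusted p = 0.765). In PparDA the smallest p belonged to Mrpl16, the counterpart of a bacterial large-subunit protein (chr19:11770391-11774960, plus strand). It had 75.3, 79.3, 65.4 and 75.5 CPM on control and 94.2, 109.8, 83.9 and 107 CPM on high fat. Again the groups do not overlap, with a log2 difference of 0.41 (edgeR adjusted p = 0.379). These members, like Mrpl54 and those compared between genotypes below, were named for their small p-values. A lack of overlap in the same libraries is therefore no further support for a difference.

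Averaged over genotypes, Mrps15, a small-subunit protein with a bacterial counterpart (chr4:126046925-126055532, plus strand), had the largest diet difference among members, 0.40 ± 0.12 (SE, edgeR adjusted p = 0.233). Its group means on control were 30.1 ± 6.63, 36.3 ± 11.3, 27.4 ± 5.85 and 32.1 ± 2.24 CPM in WT, PparD, PparA and PparDA (SD, n = 4 each). On high fat they were 44.6 ± 5.65, 48.5 ± 9.88, 35.6 ± 5.22 and 38.1 ± 14.9 CPM in the same order. The mean was higher on high fat in every genotype, while single libraries of the diets overlapped in every genotype. PparDA high-fat library 8 had 15.97 CPM, the lowest of the 32, and without it the call was made (0.46, edgeR adjusted p = 0.0357). The abundant members moved little with diet: the averaged difference was 0.04 ± 0.05 for Mrps14, 0.01 ± 0.05 for Mrpl33 and -0.01 ± 0.05 for Mrpl42 (SE, none called).

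Paralogs and members with second roles were also followed. Mrps18a, Mrps18b and Mrps18c are related to a single bacterial small-subunit protein and take different places in the mitochondrial ribosome. Mrps18c, the most abundant of them in 3' counts, had a mean of 526 ± 68.8 CPM in WT on control and 433 ± 19.7 CPM on high fat, and of 458 ± 53.9 and 516 ± 9.74 CPM in PparA (SD, n = 4 each). The diet difference was -0.29 in WT (edgeR adjusted p = 0.534), and the diet effect in PparA exceeded it by 0.46 ± 0.15 (SE, edgeR adjusted p = 0.384), so neither passed. Group means ran from 133 to 154 CPM for Mrps18a and from 128 to 157 CPM for Mrps18b, and neither was called in any comparison. Mrpl58, a peptidyl-tRNA hydrolase built into the large subunit, had group means of 62.9 to 80.9 CPM. Mrps36, the dehydrogenase component, had 290.4 to 335 CPM. Mrps12, whose bacterial counterpart lies at the decoding centre, had 36.4 to 53.8 CPM, and Mrpl44, which has a ribonuclease III-like fold, 32.5 to 44.6 CPM. Mrpl11, at the base of the stalk, was highest in WT on control at 137 ± 13.9 CPM and lay between 112 and 123 CPM in the other groups. None of these 5 was called in any comparison.

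**Figure D2:**
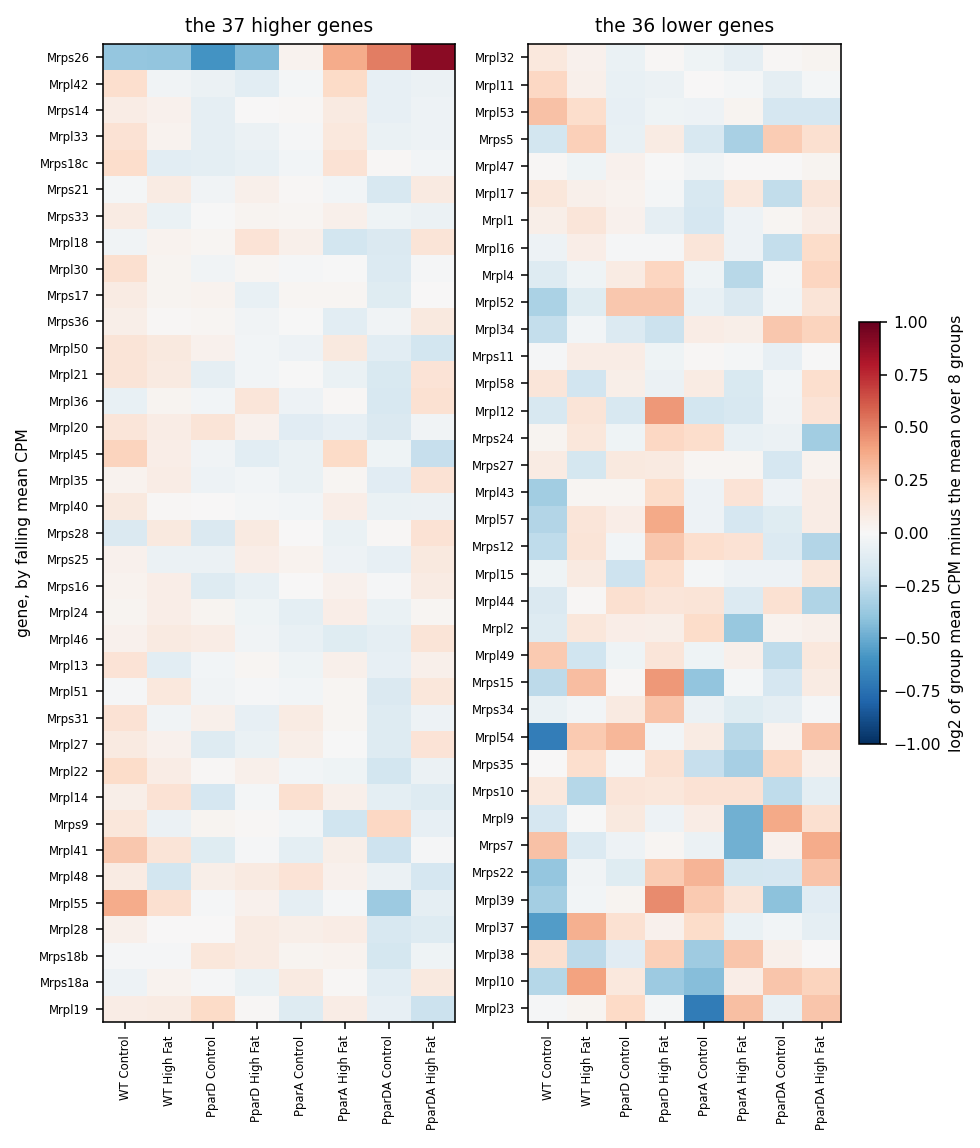
Heat map of 73 members (rows, in 2 blocks ordered by falling mean CPM) in 8 groups (columns), coloured by log2 of the group mean CPM minus the mean over the 8 groups, on a scale from -1 to 1. The Mrps26 row at the top runs from a group mean of 591 CPM in PparD on control to 1672 CPM in PparDA on high fat.

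Genotype was compared with WT within each diet, and the comparisons of one diet share the same 4 WT libraries. On control, 0 members were called in PparD against WT, where 0.204% of genes were called, 11 members had an unadjusted p under 0.05 (15.1%, against 7.71% of all genes) and the median was -0.03. Also on control, 0 were called in PparA against WT, with a background of 0.562%, 9 members at an unadjusted p under 0.05 (12.3%, against 8.89%) and a median of -0.05. In PparDA against WT on control 1 member was called, against 1.87% of all genes, and 19 of 73 had an unadjusted p under 0.05 (26.03%, against 13.8%). The members' median was -0.12 against 0.00 over all genes, with 12 of 49 large-subunit and 8 of 23 small-subunit members higher. On high fat, PparD against WT had 0 members called, a background of 0.017%, 2 members at an unadjusted p under 0.05 (2.74%, against 3.78%) and a median of -0.03. PparA against WT on high fat had 0 members called, a background of 0.749%, 6 members at an unadjusted p under 0.05 (8.22%, against 11.7%) and a median of -0.05. In these comparisons without a call, DESeq2 also called 0 members, and limma called 1 in PparA against WT on high fat and 0 in the others. PparDA against WT on high fat had 1 member called, a background of 1.57% and a median of 0.01, with 38 of 73 higher. There, 5 members had an unadjusted p under 0.05 (6.85%, against 13.6% of all genes), a share below the background, while the share on control was above it. The members' median was thus below that of all genes in PparDA on control and near it on high fat, and no single member passed the test of the difference in diet effect given above.

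The called member on control was Mrpl55, a large-subunit protein (ENSMUSG00000036860, chr11:59202486-59206134, GRCm38, plus strand). WT control libraries had 210.0, 194, 181 and 179 CPM, and PparDA control libraries had 136, 112, 114 and 98.5 CPM. The groups do not overlap. The log2 fold change was -0.73 ± 0.16 (SE, n = 4 and 4; confidence interval -1.06 to -0.40, edgeR adjusted p = 0.0115), and Mrpl55 thus fell in PparDA on the control diet. With the replicate block the adjusted p was 0.00703. The call was lost without PparDA control library 31 (-0.66, edgeR adjusted p = 0.0658). It was also lost within runs 1 and 3 alone (-0.64, edgeR adjusted p = 0.274) and within runs 2 and 4 alone (-0.81, edgeR adjusted p = 0.115). The other mutants on control had means between those of WT and PparDA. PparD had 148, 146, 158 and 134 CPM and PparA had 179, 100.4, 152 and 124 CPM. Of these, 134 CPM in PparD and 100.4 and 124 CPM in PparA lay within the PparDA range. Neither mutant passed the test, with a log2 difference of -0.46 for PparA (edgeR adjusted p = 0.284). On high fat the ranges overlapped: 181, 147, 157 and 175 CPM in WT and 104, 188, 139.8 and 124 CPM in PparDA. The log2 difference there was -0.25 (edgeR adjusted p = 0.558). The change of this difference with diet did not pass for Mrpl55 or any member (smallest edgeR adjusted p = 0.748). WT control had the highest mean of the 8 groups, 191 ± 14.2 CPM, and PparDA control the lowest, 115 ± 15.4 CPM (SD, n = 4 each).

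Next by p in the same comparison were Mrpl41, Mrpl22 and Mrpl34. Mrpl41, a mitochondria-specific large-subunit protein (chr2:24974117-24975098, minus strand), had 189.9, 214, 210.0 and 188 CPM in WT control and 167, 161, 141 and 105 CPM in PparDA control. The ranges do not overlap. Its log2 difference of -0.47 ± 0.13 (SE) gave an edgeR adjusted p of 0.0547, or 0.024 with the replicate block. Against the same WT libraries Mrpl41 was also lower in PparD (-0.39, edgeR adjusted p = 0.340) and in PparA (-0.37, edgeR adjusted p = 0.321). The lower level is thus not particular to PparDA. Mrpl22, whose bacterial counterpart lines the exit tunnel of the nascent chain (chr11:58171661-58179565, plus strand), had 234, 198, 199 and 188 CPM in WT control and 181, 170.3, 144 and 138 CPM in PparDA control. Its difference was -0.37 (edgeR adjusted p = 0.0547, or 0.0382 with the replicate block). Of the last 500 bases of Mrpl22, 61.6% of the 25-base words also occur in the pseudogene Gm6997, which had a mean of 1.99 CPM. Mrpl34, a small protein with a bacterial counterpart (chr8:71464959-71465747, plus strand), differed the other way. It had 66.9, 61.1, 55.9 and 74.5 CPM in WT control and 82.8, 88.1, 88.2 and 108 CPM in PparDA control, a difference of 0.51 ± 0.15 (SE; edgeR adjusted p = 0.073, or 0.0483 with the replicate block). With that block 4 members were called, in both directions, and 2.81% of all genes were called. In PparD and PparA against WT on control, Mrpl22 differed by -0.18 and -0.22 and Mrpl34 by 0.10 and 0.32, none called.

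**Figure D3:**
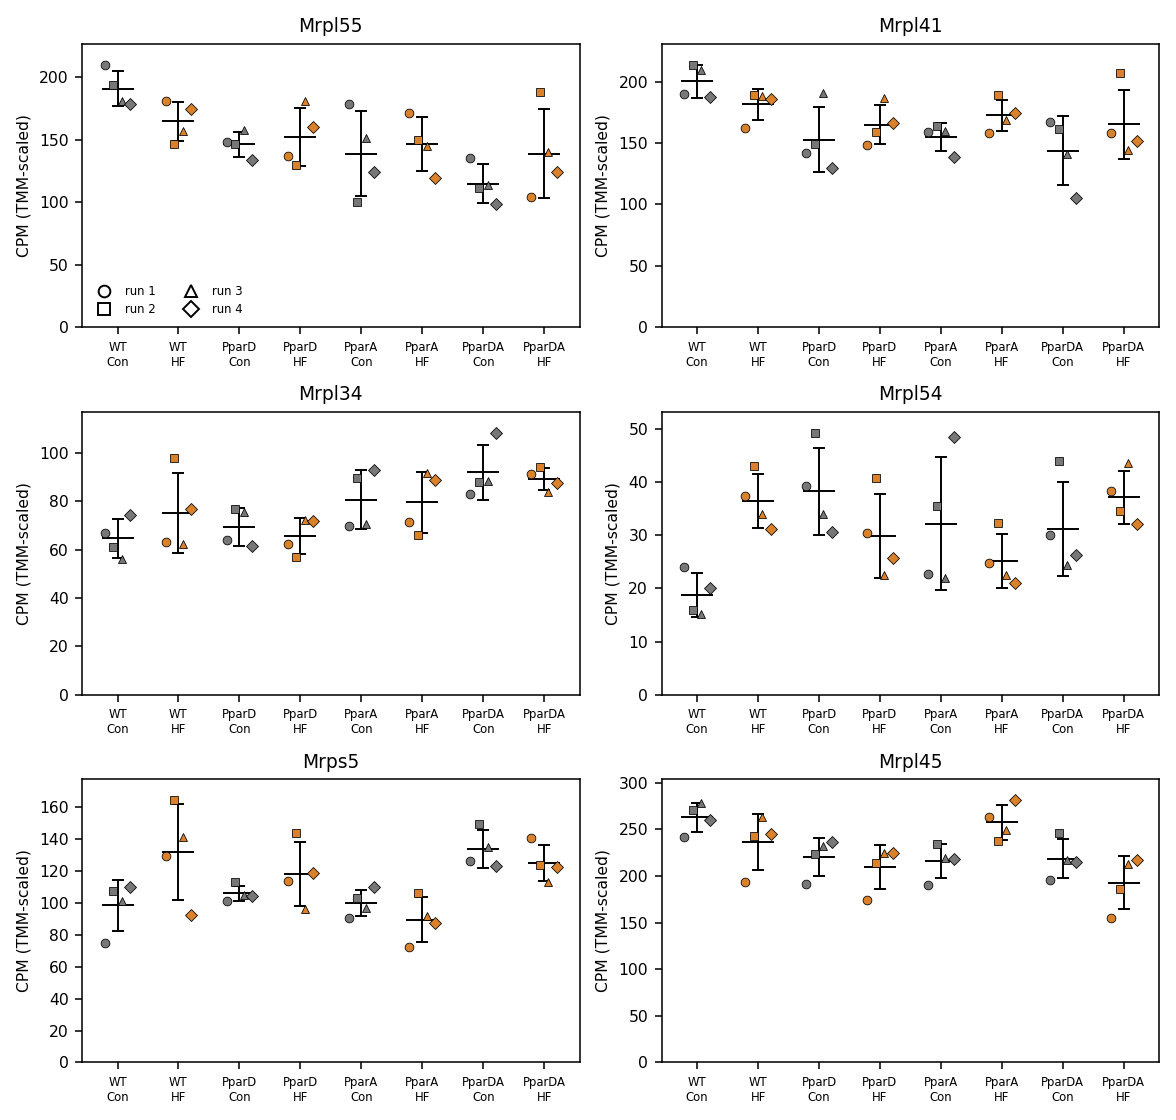
CPM in each of the 32 libraries by group for Mrpl55, Mrpl41, Mrpl34, Mrpl54, Mrps5 and Mrpl45, with points for libraries and bars for the group mean ± SD. In Mrpl55 the 4 WT control libraries (179 to 210.0 CPM) lie above the 4 PparDA control libraries (98.5 to 136 CPM), and in Mrpl54 the WT control libraries (15.1 to 24.1 CPM) are low.

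Marker lists of other cells were set beside this comparison. All 11 enterocyte markers were higher in PparDA than in WT on control, 0 of them called, and their summed level ran from 1368 to 1557 CPM in WT and from 2171 to 2528 CPM in PparDA. All 8 tested goblet markers were higher, 2 of them called, with sums of 712 to 2095 and 1443 to 3302 CPM. Of 12 Paneth markers 11 were higher, 0 called, with overlapping sums of 6432 to 16835 and 6550 to 44702 CPM. Of 18 proliferation genes 3 were higher, 0 called. Over all genes tested in this comparison, 50.5% were higher and 1.87% were called. The part of these cells in the lower level of members was not tested. In bulk libraries, fewer cells of a type and less RNA per cell cannot be told apart.

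In PparD against WT on control the smallest p-values belonged to Mrpl54 and Mrpl52, neither called. Mrpl54 had a difference of 1.01 ± 0.25 (SE; edgeR adjusted p = 0.114), which passed with the replicate block (adjusted p = 0.0484); all 4 PparD control libraries lay above the 4 WT control libraries. Mrpl52, a mitochondria-specific large-subunit protein, had 52.2, 59.7, 60.4 and 84.5 CPM in WT control and 103, 82.7, 103 and 96.1 CPM in PparD control, a difference of 0.58 (edgeR adjusted p = 0.312). One WT library overlapped the PparD range. In PparD against WT on high fat no member had an adjusted p below 0.99.

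In PparA against WT on high fat the smallest p belonged to Mrps5, which had 72.7, 107, 91.7 and 87.3 CPM in PparA against 129, 164, 142 and 92.3 CPM in WT. The difference of -0.55 ± 0.15 (SE) did not pass (edgeR adjusted p = 0.0799), and passed with the replicate block (adjusted p = 0.0315) and without WT high-fat library 25 (-0.69, edgeR adjusted p = 0.00899). Mrps5 was at 127, 149.7, 135 and 123 CPM in PparDA on control, above all 4 WT control libraries. That difference of 0.44 did not pass (edgeR adjusted p = 0.145, or 0.0747 with the replicate block). Mrpl45, a mitochondria-specific protein placed where the large subunit meets the inner membrane (chr11:97315716-97329920, plus strand), had 194, 243, 263 and 246 CPM in WT on high fat. In PparDA on high fat it had 155, 187, 213 and 217 CPM. The ranges overlap, and the difference was -0.29 (edgeR adjusted p = 0.236). In every group but PparA on high fat, the library of run 1 had the lowest Mrpl45 level of its group.

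The member called on high fat was Mrps26 (ENSMUSG00000037740, chr2:130563742-130568695, GRCm38, plus strand). WT libraries had 622, 664, 744 and 684 CPM and PparDA libraries had 1549, 1591, 1910.3 and 1635 CPM, with a wide gap between the groups. The log2 fold change was 1.30 ± 0.30 (SE, n = 4 and 4; confidence interval 0.69 to 1.91, edgeR adjusted p = 0.0149, or 0.00742 with the replicate block). Mrps26 thus rose in PparDA on high fat. The call was lost without WT high-fat library 2 (1.26, edgeR adjusted p = 0.0548) or library 25 (1.30, edgeR adjusted p = 0.0516). It stood within runs 1 and 3 (1.33, edgeR adjusted p = 0.00497) and within runs 2 and 4 (1.26, edgeR adjusted p = 0.0131). On control, WT libraries had 566, 742, 695 and 733 CPM and PparDA libraries had 1538, 1446, 1089 and 1009 CPM. These groups do not overlap either. Their difference of 0.89 ± 0.30 (SE) did not pass (edgeR adjusted p = 0.141), although it did without a filter on low counts (adjusted p = 8.66e-09) and within runs 1 and 3 alone (1.06, adjusted p = 0.0314).

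In PparD, Mrps26 stayed near the WT range, with 541, 625, 699 and 499.9 CPM on control and 586, 584, 814 and 649 CPM on high fat. In PparA the libraries of a group differed widely: 680.0, 1553, 571 and 856 CPM on control and 515, 1652, 544 and 1922 CPM on high fat, in the order of runs 1 to 4. In both diets the PparA libraries of runs 2 and 4 were high, above every WT and PparD library. Those of runs 1 and 3 were within the range of WT and PparD. Runs 1 and 3 are those with high Xist and runs 2 and 4 those with Ddx3y, so run pair and sex cannot be told apart here. PparA against WT on high fat gave 0.78 (edgeR adjusted p = 0.273), and within runs 1 and 3 alone the sign turned (-0.38, edgeR adjusted p = 0.901). Without PparA high-fat library 6 it was 1.03 (edgeR adjusted p = 0.0498). Mrps26 was the only one of the 73 members past the joint test of the 8 groups (edgeR adjusted p = 0.00297), in which 4.34% of all genes were called. With the replicate block 4 members passed that test: Mrps26 (adjusted p = 0.00134), Mrpl45 (0.00781), Mrps5 (0.0194) and Mrpl54 (0.0449). In that fit 7.80% of all genes were called.

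Genes most like Mrps26 were chosen, after their values were seen, as the tested genes whose log2 CPM had a Pearson coefficient of 0.9 or more with it over the 32 libraries. There were 5: Ccdc62, Rep15, Itch, Tmem69 and AA465934, on chromosomes 5, 6, 2, 4 and 11. The coefficient rests on the separation of high from low libraries and is only a measure of likeness. Ccdc62 had 352 to 599 CPM in the 16 WT and PparD libraries and 353 to 495 CPM in the PparA libraries of runs 1 and 3. It had 1217 to 2859 CPM in the PparA libraries of runs 2 and 4 and 1269 to 2601 CPM in the 8 PparDA libraries. Rep15, a partner of the small GTPase Rab15, had 55.1 to 108 CPM in WT and PparD and 66.9 to 84.8 CPM in PparA of runs 1 and 3. In PparA of runs 2 and 4 it had 448 to 1340.0 CPM, and in PparDA 497 to 1197 CPM. Itch, a ubiquitin ligase, had 50.8 to 103 CPM in WT and PparD, 61.0 to 78.5 CPM in PparA of runs 1 and 3, 298 to 878 CPM in PparA of runs 2 and 4 and 366 to 781 CPM in PparDA. In each of these 3 genes, as in Mrps26, every PparDA library and every PparA library of runs 2 and 4 lay above all other libraries. AA465934 went from 2.87 to 14.2 CPM in WT and PparD to 128 to 315 CPM in PparDA, and Tmem69 from 63.9 to 147 CPM to 211 to 383 CPM.

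Mrps26 shares sequence with several of these genes. Of the 5, 4 share at least one 25-base word of a transcript with Mrps26 on the same strand, while 539 of the other 5871 tested genes (9.18%) do. AA465934 shares none. Further down the order of likeness the share was lower, 4 of the 10 nearest genes (40%) and 5 of the 20 nearest (25%), so most of these 20 genes share no such word. A stretch of 30 bases in the long 3' end of the Mrps26 transcript (bases 3030 to 3059 of 4278) occurs in Ccdc62, Rep15 and Itch and in 180 other tested genes (3.07%). Genes that share sequence can share reads, and whether the Mrps26 count holds such reads was not tested. In the 4278-base transcript the shared region ends 1114 bases before the 3' end. In its last 500 bases Mrps26 shares no 25-base word with another gene. Where on the transcript the counted reads lie was not tested. The part of shared sequence in the Mrps26 result was not tested. The 10 nearest tested genes of chromosome 2 had coefficients with Mrps26 of -0.29 to 0.09. Siglec1 among them shares 34 of the 25-base words with Mrps26, against 17 for Rep15, and had a coefficient of -0.01. Among other members, the Mrpl23 count is uncertain: 99.6% of the 25-base words in its last 500 bases occur in the pseudogene Mrpl23-ps1, which was counted at 306 CPM against 11.8 CPM for Mrpl23. Of the 74 members, 42, Mrps26 among them, share no such word in their last 500 bases and 3 share 50% or more.

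**Figure D4:**
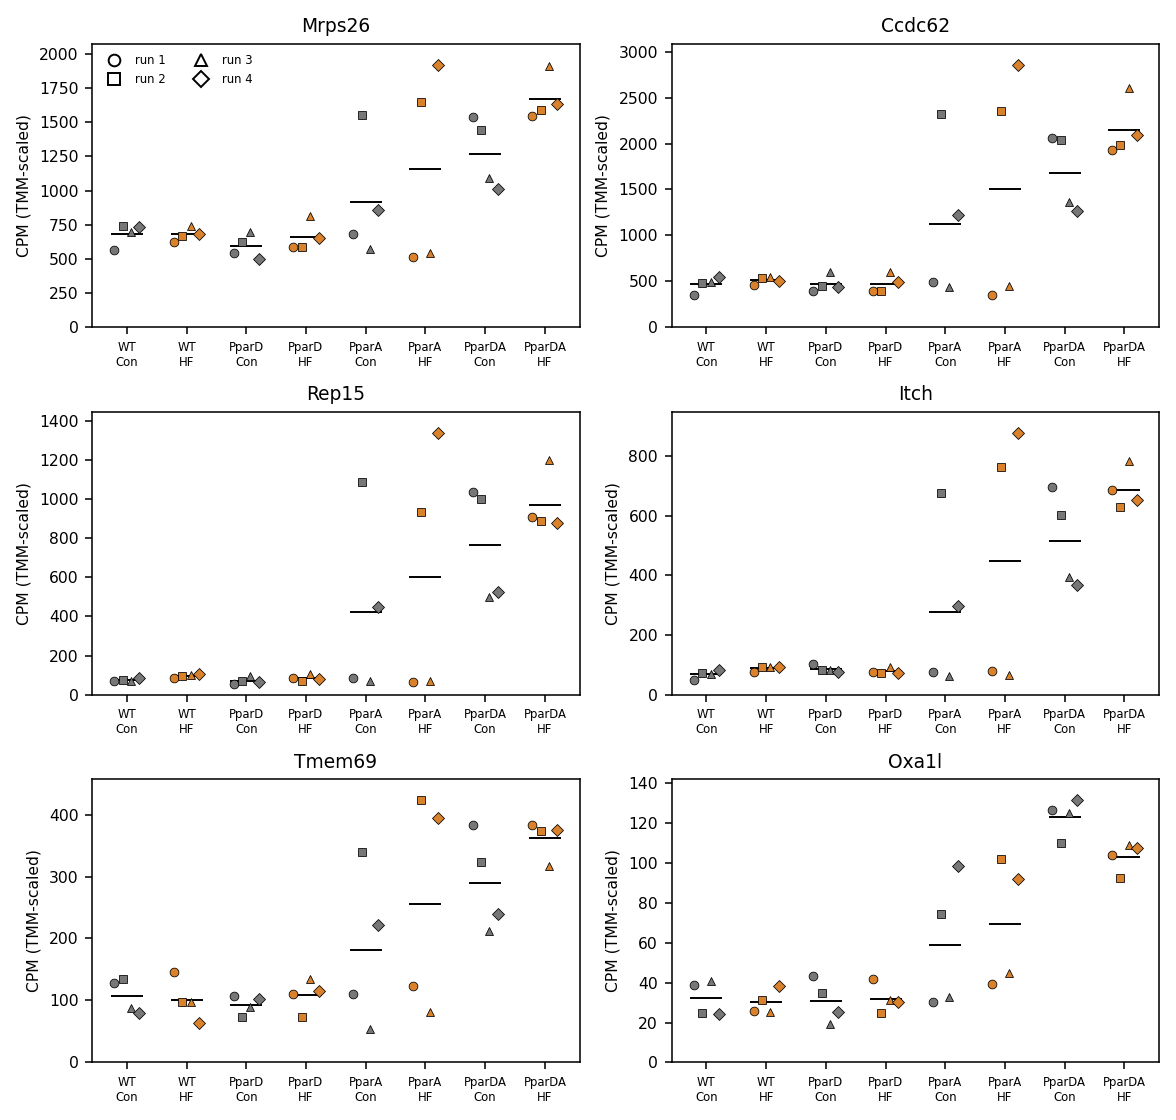
CPM in each of the 32 libraries by group for Mrps26, Ccdc62, Rep15, Itch, Tmem69 and Oxa1l, with points for libraries, marker shapes for the 4 runs and lines for group means. PparDA libraries are high in all 6 panels, and PparA libraries are high in runs 2 and 4 and low in runs 1 and 3.

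Summed over the 74 members, group means ran from 12232 ± 827 CPM in PparD on control to 13564 ± 655 CPM in PparDA on high fat (SD, n = 4 each). WT had 13108 ± 223 CPM on control and 12734 ± 123 CPM on high fat, and these ranges (12884 to 13416 and 12576 to 12862 CPM) do not overlap. By library totals the WT ranges were 13191 to 14110 and 12091 to 13224 CPM, which overlap. Mrps26 carries much of the PparDA sum. Without it, PparDA on high fat had 11893 ± 643 CPM and no longer the highest sum, below WT on control at 12424 ± 198 CPM and WT on high fat at 12055 ± 103 CPM. PparDA on control had the lowest sum without Mrps26, 11155 ± 748 CPM, and its 4 libraries (10270 to 11996 CPM) lay below the 4 WT control libraries (12318 to 12721 CPM). So did the libraries of WT on high fat (at most 12198 CPM), PparD on high fat (at most 12215 CPM) and PparA on control (at most 12276 CPM). The separation is thus not particular to PparDA. The large subunit alone had 8060 ± 150 CPM in WT and 7078 ± 415 CPM in PparDA on control, with no overlap between libraries. Here too WT on high fat (at most 7914 CPM), PparD on high fat (at most 7912 CPM) and PparA on control (at most 7869 CPM) lay below WT on control (at least 7944 CPM). The small subunit without Mrps26 had 4037 ± 102 CPM in WT and 3772 ± 290 CPM in PparDA on control, which overlap. By library totals they barely separate, with 4034.6 to 4399 CPM in WT and 3357 to 4033.3 CPM in PparDA. On that scale other groups also lay below WT on control. They were WT on high fat (at most 4026 CPM), PparD on control (at most 3969 CPM) and PparDA on high fat (at most 3892 CPM). This separation too is not particular to PparDA on control. The large subunit does not overlap between WT and PparDA on control on either scale.

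**Figure D5:**
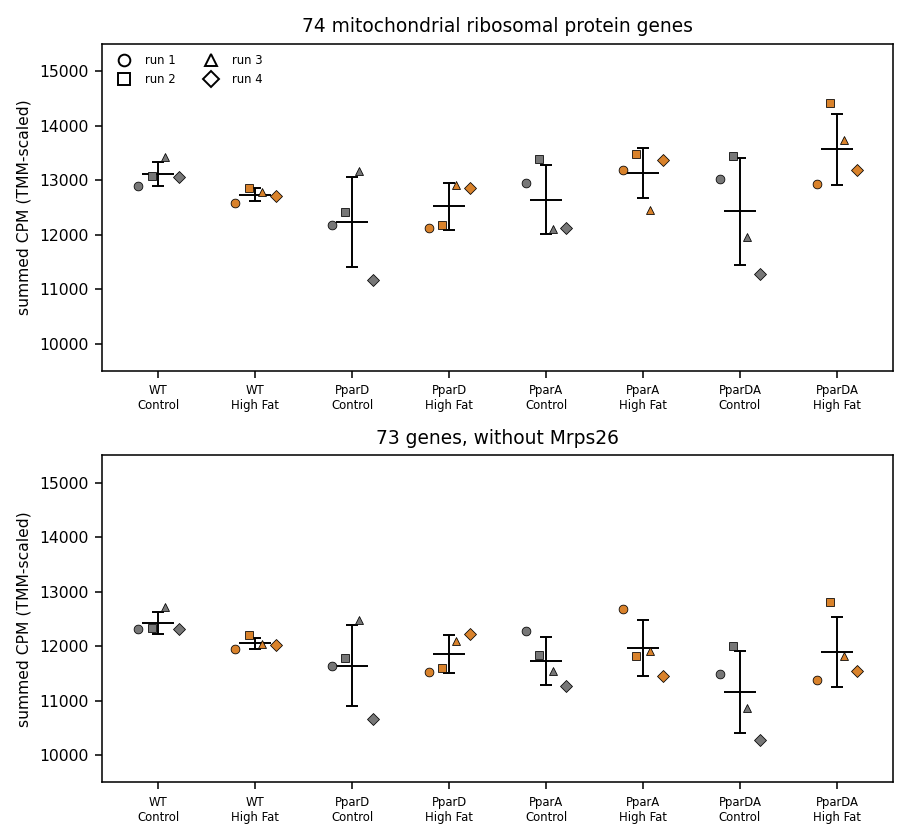
Summed CPM of the 74 members (top) and of the 73 members other than Mrps26 (bottom) in each library, by group, with marker shapes for the 4 runs and bars for the group mean ± SD; the axis starts above 0. The PparDA high-fat mean is the highest in the upper panel (13564 CPM) and not in the lower (11893 CPM), where WT on control is highest (12424 CPM).

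Within groups, the members' median biological coefficient of variation was 11.4%, against 14.1% for genes of 10 CPM or more. The variance-to-mean ratio of counts had the other order in these sets, with a median of 1.56 over 73 members and 1.46 over 5664 genes. Among genes of 100 CPM or more, it had a median of 1.80 over 41 members and 2.87 over 1262 genes. Mrps26 was the exception, with a ratio of 69.8. Mrps17, Mrpl50, Mrpl22, Mrpl33 and Mrps28 varied least, and Mrps7, Mrps34, Mrpl9, Mrps26 and Mrps12 most, among members of 20 CPM or more. Pairs of members of 100 CPM or more had a median correlation over libraries of 0.13 with group means removed, against 0.03 for all pairs of genes at that level. Libraries share depth and run, and a coefficient of this size is no finding.

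Between the 4 runs of library numbers, 3 members passed the test, against 5.25% of all genes: Mrps34, Mrpl45 and Mrps33. Mrps34, a mitochondria-specific small-subunit protein, had run means of 36.4, 43.4, 25.5 and 31.2 CPM (edgeR adjusted p = 0.0253). Mrpl45 had 201, 232, 237 and 238 CPM (edgeR adjusted p = 0.0332), lowest in run 1. Mrps33, also a mitochondria-specific small-subunit protein, had 391, 339, 381 and 330.3 CPM (edgeR adjusted p = 0.0438), higher in the 2 runs with Xist. The Mrps33 call was lost in 27 of 32 fits that left out a library, the Mrpl45 call in 7 and the Mrps34 call in 4.

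Genes that work with the mitochondrial ribosome were compared by fixed lists. The 5 subunits named outside the Mrp series (Dap3, Ptcd3, Chchd1, Aurkaip1 and Gadd45gip1) had 0 calls in every comparison, and their summed level was 951 ± 67.3 CPM in WT control and 887 ± 63.4 CPM in PparDA control (SD, n = 4 each). Of 24 assembly and rRNA modification factors 16 were tested, with 0 calls between groups. Of 18 translation factors 12 were tested and 1 passed, Oxa1l, the inner-membrane insertase that receives chains from the mitochondrial ribosome (chr14:54360834-54369673). Oxa1l had 38.8, 24.7, 40.8 and 24.3 CPM in WT control and 127, 110.1, 125 and 131 CPM in PparDA control. It rose by 1.93 ± 0.31 on the log2 scale (SE; edgeR adjusted p = 0.000334). On high fat it had 25.9, 31.1, 25.5 and 38.3 CPM in WT and 104, 92.5, 109 and 107 CPM in PparDA, a rise of 1.77 ± 0.31 (SE; edgeR adjusted p = 0.00164). PparA libraries were again divided by run pair, which is also the division by Xist and Ddx3y. They had 30.3, 74.1, 32.8 and 98.4 CPM on control and 39.3, 102, 45.0 and 92.1 CPM on high fat. On high fat Oxa1l in PparA differed from WT by 1.20 (edgeR adjusted p = 0.0729, or 0.0492 with the replicate block).

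The mitochondrial genome's own transcripts gave few calls. In PparDA against WT on control, mt-Nd4 was called at 0.34 (edgeR adjusted p = 0.0324) among 15 transcripts, 13 of them higher. Of all genes, 50.5% were higher and 1.87% were called. The mt-Nd4 call stood in 26 of 32 fits that left out a library. On high fat the 12S ribosomal RNA of the small subunit, mt-Rnr1, was called at 0.69 ± 0.18 (SE; edgeR adjusted p = 0.0411), and the 16S ribosomal RNA, mt-Rnr2, was not, at 0.46 (edgeR adjusted p = 0.165, or 0.0428 with the replicate block). The mt-Rnr1 call was lost in 11 of 32 fits that left out a library. Mitochondrial ribosomal RNAs carry only short poly(A) tails, and how completely they were captured was not tested. Of 55 nuclear respiratory chain genes, 0 were called in any diet comparison, and in PparDA 46 of 55 were higher on high fat (49.7% of all genes were). Of 18 tested fatty acid oxidation genes, 4 were called for diet in WT (0.102% of all genes), all higher, and 6 with genotypes averaged (0.324% of all genes). The difference between these lists was not tested.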

How the data were processed

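Gene levels were measured by 3' digital gene expression in 32 libraries of sorted mouse intestinal stem cells, 8 groups of 4. The authors deposited expected counts per gene and library, rounded to whole numbers, and a table of log2(CPM + 1) values. Per the submitters' processing notes, the tools were R 4.0.2, edgeR 3.30.2 and Salmon 1.1.0 with the build mm10; the notes give no role for each. Use of molecular identifiers is not given, so counts need not be independent molecules. Symbols and coordinates came from GENCODE on GRCm38 by identifier (54166 of 54418 matched).

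Columns were assigned to groups by name. The expected counts were tested in edgeR 4.0.16 (R 4.3.3) after filterByExpr (minimum count 10, total 15; 5872 genes holding 97.1 to 97.7% of counts) with TMM factors, 1 coefficient per group, the quasi-likelihood test and Benjamini-Hochberg adjustment over all 5872 genes. Intervals are at 95%. The script was tested on simulated data. The column names carry no replicate number. Same-run libraries deviated together in 31 of 32 libraries over 5664 genes, and the run therefore served as the replicate block of an alternative fit. Other alternatives were DESeq2 1.42.0, DESeq2 size factors, no filter, a robust prior, limma 3.58.1 on the deposited log2 values, run pairs and leaving out each library.

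The members and gene lists were chosen with earlier results of these data known. Named members were those called, the 2 smallest p in each direction per comparison, the 5 highest, lowest, most and least variable, the 3 on either side of the threshold, and members of known role. Genes like Mrps26 were named after seeing their values.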

Additional observations from a re-analysis of the deposited data

Results flagged for a closer look

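In 152 sets of 4 libraries (15 genes and the summed levels, by group), 5 held a library whose gap to its nearest neighbour exceeded the 95% critical share of the set's range in Dixon's test, 3.29%; chance alone marks about 1 in 20. The summed large-subunit level per library total was 8128 CPM in PparD control library 19, while the other 3 libraries of that group had 7341 to 7411 CPM. Mrpl41 was at 162 CPM in WT high-fat library 2, while the other 3 WT high-fat libraries had 186 to 189.7 CPM. Mrpl16 was at 103 CPM in PparD high-fat library 12 against 79.4 to 81.9 CPM in the others of its group, and Mrpl52 at 76.3 CPM in PparD high-fat library 20 against 100.5 to 104 CPM. Mrps15 was at 15.97 CPM in PparDA high-fat library 8 against 43.5 to 48.6 CPM.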

How the results depend on the processing

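Each comparison was paired with each alternative, most of which left out a single library. Median log2 fold changes of the members kept their value within the spread between libraries (SD 0.064) in 566 of 574 such pairs. Counts of called members were unchanged or nearly so in 608 of 648 pairs, in most of which no member was called either way. The 8 exceptions among medians were diet in WT with limma on the deposited log2 values (-0.066), diet in PparDA within runs 1 and 3 (0.051) with limma (0.050) and without library 16 (0.055), PparD against WT on control within runs 2 and 4 (-0.090), PparA against WT on high fat within runs 2 and 4 (-0.14), and the diet effect minus that of WT within runs 1 and 3 for PparD (-0.029) and PparDA (0.048). Members called in PparDA against WT on control numbered 2 without a filter on low counts, 2 with the robust prior, 4 with the replicate block, 0 within runs 2 and 4 and 3 with limma, against 1 as reported. PparA against WT on high fat had 1 member called without a filter, with the replicate block, within runs 2 and 4 and with limma, against 0. PparD against WT on control had 1 with the replicate block, against 0. The joint test of the 8 groups had 2 with the robust prior, 4 with the replicate block, 3 with DESeq2 and 2 with limma, against 1. With the replicate block the shares of all genes called in these comparisons were, in the order given, 2.81, 1.58, 0.375 and 7.80%. Mrps26 in PparA against WT on high fat turned to -0.38 within runs 1 and 3. The cause of these changes was not tested.

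Leaving out each library in turn gave 0 to 3 called members in PparDA against WT on control, 0 to 1 in PparDA and in PparA against WT on high fat, 0 to 1 for diet averaged over genotypes, 1 to 2 among the 8 groups and 1 to 5 among the runs; the median for diet in PparDA ran from 0.055 to 0.15. As a percentage of the mean over 32 libraries, the summed level of WT on control was 102% with TMM factors, against 107% by library totals. PparDA on high fat was 106% with TMM factors, 96.9% without the 3 highest members and 96.2% without Mrps26 (added after seeing the data), against 102% by library totals. Library totals under 724155 counts leave the lowest members at means of 7 to 13 counts in a library, where small changes were not detectable.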
